A study of Gallus gallus with 8 samples.

Results

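The liver genes described here convert thyroid hormone, bind it in the nucleus or carry it in plasma. They are the deiodinases DIO1 and DIO2, the receptors THRA and THRB, and transthyretin, TTR. These are 5 of the 20170 genes with a value in a comparison of broiler livers between a high and a low stocking density. They were picked by gene symbol from a list of 6, keeping the rows whose higher group mean was above 0. The deiodinase DIO3 has no row under its symbol and is not analysed here. Of the higher group means of the 5, the lowest was 6.14, for THRA. No listed gene with a row stood at 0, so the limit of 0 removed none.

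Livers came from broiler chickens (Gallus gallus, raised for meat) that were labelled male and sampled on day 46. Birds of the low density group (treatment A) were kept towards 24.4 kg/m2 at the end, equal to 5 lb/ft2. Those of the high density group (treatment D) were kept towards 39.1 kg/m2, equal to 8 lb/ft2. Each group had 4 RNA-seq libraries and each library pooled equal RNA from 4 birds, so 16 birds stand behind a group, and the labels name no strain and no other treatment.

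Thyroid hormone leaves the gland mainly as T4, a precursor that has to lose an iodine to become the active T3. DIO2 removes iodine from the outer ring and makes T3, DIO3 removes it from the inner ring and inactivates both hormones, and DIO1 can do either. All of them are membrane selenoproteins, enzymes with a selenocysteine in the active site. In the chicken, the liver is known as a place where hormone is both activated and broken down. T3 enters the nucleus and acts through THRA and THRB, which bind DNA mostly as partners of a retinoid X receptor and repress or activate their targets depending on the hormone. TTR is made by the liver and carries hormone in plasma, and in birds it prefers T3 to T4.

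All measured values come from the authors' deposited table of 1 comparison, high against low density. Each gene has the higher of both group means, a log2 fold change, and p-values with and without adjustment. It holds 0 columns of values per library, so the value in each library, the spread between pools and any overlap of the groups are not known here, nor is the sequencing depth. The scale of the means is not named, so means are compared between the groups gene by gene, and between genes only to pick out those with similar means on that scale, not as levels of expression. The lower mean was computed from the higher mean and the fold change, and the sign of the fold change set which group had the higher mean. This takes the deposited fold change as the ratio of the group means, which was not checked. A deposited adjusted p below 0.05 is what makes a gene called here. Approximate standard errors (SE) and 95% intervals were computed from the deposited fold change and p-value as if from a Wald test, which the table does not state. In whole liver RNA, a change in the share of a cell type and a change in RNA per cell cannot be told apart.

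DIO2, the activating deiodinase, rose 2.95-fold at high density, a log2 fold change of 1.56 per the authors' deposited table. Its higher mean there was 8.89, taken as that of high density, and the computed mean at low density was 3.01. The other 4 genes stayed uncalled, with log2 fold changes between -0.11 and 0.03 per the authors' deposited table. Thus 1 of the 5 genes was called, as higher, where 0.159% of all genes were called higher and 0.273% were called in either direction. The genes were chosen by their group mean and with earlier results of this comparison known, so these counts describe them and are no test.

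**Figure D1:**
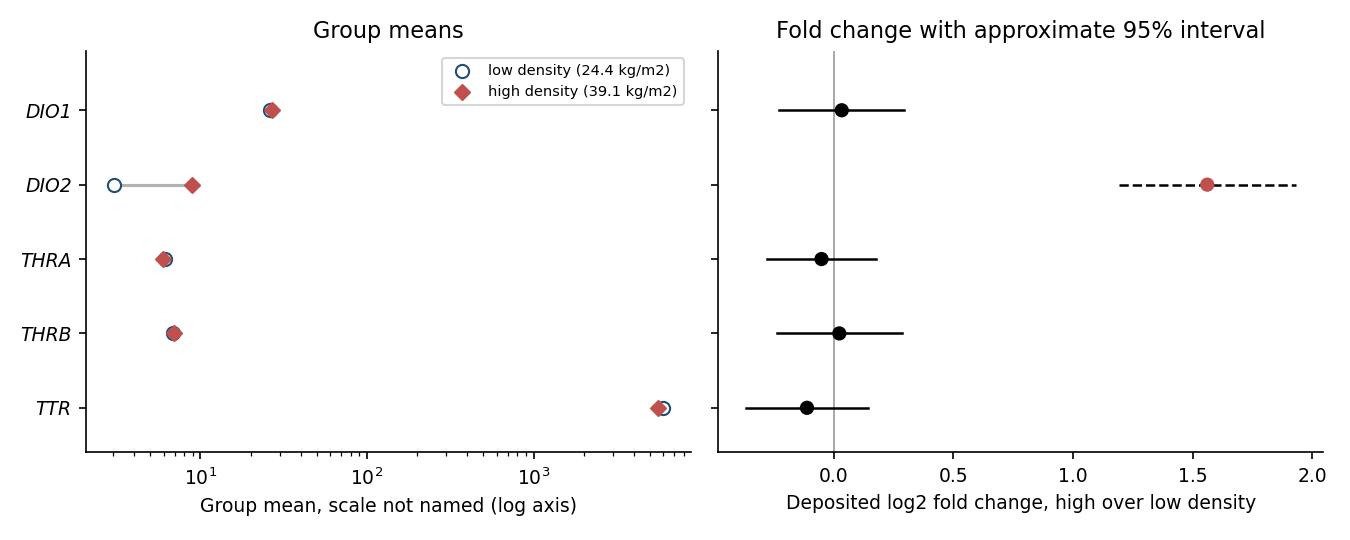
Left, group means of DIO1, DIO2, THRA, THRB and TTR at low density (open circles) and high density (red diamonds) on a log axis. The scale is not named, the group of the higher mean follows the sign of the fold change, and the lower mean is computed. Right, deposited log2 fold change, high over low density, with the approximate 95% interval (dashed for DIO2, where it is the widest that its p-value allows; red, called). DIO2 sits at 1.56, and the intervals of the other 4 genes all span 0.

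The DIO2 gene model (ENSGALG00000026005) lies on the minus strand of GRCg6a chromosome 5, from 40752235 to 40769122, and overlaps no other model with a value. Its p-value is entered as 0 per the authors' deposited table, and it is the 1 gene of 20170 with a value for which this holds. The 22 p-values above 0 and under 1e-05 are all whole multiples of 1.11e-16 (to within 0.01 of a multiple), which is the spacing left when a number close to 1 is subtracted from 1. The smallest of them, that of the lipoprotein lipase inhibitor ANGPTL4, is 7 such steps per the authors' deposited table. An entry of 0 can therefore be read as a p-value of less than about 1 step. With that limit the approximate SE of DIO2 is at most 0.19, and the 95% interval of its log2 fold change is no wider than 1.19 to 1.93, which is 2.28-fold to 3.81-fold.

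A change of that size was rare among genes with a similar higher group mean on the unnamed scale. For DIO2 that mean is the 8.89 of high density, not the computed 3.01 of low density, and matching on the lower mean was not done. DIO2 was chosen with earlier results of this comparison known, so its place among these genes is described and is no test. Of 4526 genes with a mean within 2-fold of that of DIO2, 2 had a larger log2 fold change in size. ENSGALG00000043909 was higher at high density by 1.66 (adjusted p = 0.00558), and ENSGALG00000051251 had a value of -1.59 (unadjusted p = 0.0732), both per the authors' deposited table. The median approximate SE of these genes was 0.14, with quartiles of 0.12 and 0.15. By size, DIO2 was 9th of the 32 genes called higher. The called genes with the most similar log2 fold change, over this 1 comparison, were ENSGALG00000051550 (1.64), ENSGALG00000043909 (1.66), ENSGALG00000012089 (1.45) and ANGPTL4 (1.26) per the authors' deposited table.

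**Figure D2:**
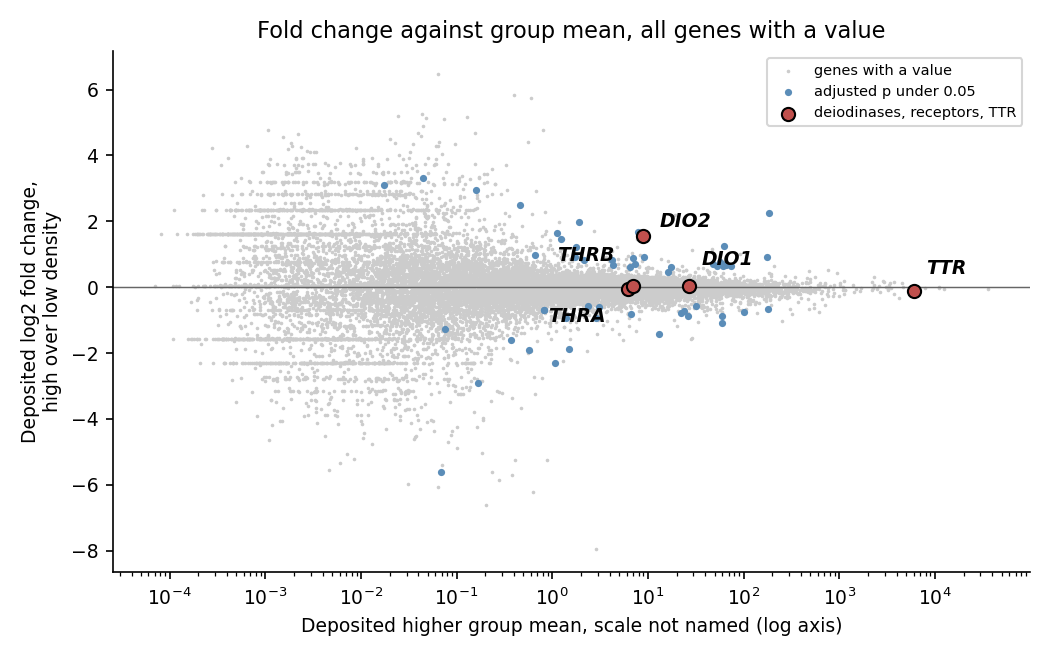
Deposited log2 fold change (high over low density) against the deposited higher group mean (log axis, scale not named) for the 20170 genes with a value; blue points are the called genes and red points the 5 genes described. DIO2 lies above nearly all genes with a similar higher group mean, while DIO1, THRA, THRB and TTR lie within the band of uncalled genes around 0.

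DIO1, the deiodinase that works on either ring, was not called. Its higher mean was 26.8 per the authors' deposited table, taken as that of high density, and the computed mean at low density was 26.2. The log2 fold change was 0.03 (approximate SE 0.13, unadjusted p = 0.796 per the authors' deposited table). The approximate interval runs from -0.23 to 0.30, or 0.854-fold to 1.23-fold, and so leaves room for small changes in both directions but lies wholly below the interval of DIO2. Of 2170 genes with a mean within 2-fold of that of DIO1, 76.2% had a larger log2 fold change in size. The DIO1 model (ENSGALG00000010736, chromosome 8, 25457804 to 25462021, plus strand) shares 97 bases with HSPB11 on the other strand, which had a log2 fold change of 0.07 per the authors' deposited table.

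Neither receptor was called, and both had small log2 fold changes. For THRA the higher mean was 6.14 per the authors' deposited table, taken as that of low density, and the computed mean at high density was 5.93. Its log2 fold change was -0.05 (approximate SE 0.12, unadjusted p = 0.665 per the authors' deposited table), with an approximate interval of -0.28 to 0.18. THRB had a higher mean of 6.92 per the authors' deposited table, taken as that of high density, against a computed 6.81 at low density. Its log2 fold change was 0.02 (approximate SE 0.13, unadjusted p = 0.856 per the authors' deposited table), with an interval of -0.24 to 0.29. A change of either receptor beyond 0.826-fold or 1.22-fold lies outside these intervals.

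The THRA value needs care because of its gene model. ENSGALG00000040017 (chromosome 27, 7106164 to 7164078, plus strand) spans 57915 bases and overlaps 5 other models with a value, and 4 of the 5 share its strand. These are the sphingolipid regulator ORMDL3, the gasdermin GSDMA, the proteasome subunit PSMD3 and the granulocyte growth factor CSF3, while MED24, a Mediator subunit, lies on the other strand. ORMDL3, GSDMA, PSMD3 and MED24 had log2 fold changes between -0.05 and 0.10, and CSF3 had one of -1.28 (approximate SE 0.51, adjusted p = 0.709), per the authors' deposited table. The sources used here do not say how reads in shared stretches were counted. In RefSeq's annotation of the later assembly GRCg7b, THRA overlaps 0 other genes and stands between MED24 and NR1D1. THRB (ENSGALG00000011294, chromosome 2, 37209656 to 37257267, minus strand) overlaps no other model with a value in the deposited table, though in the RefSeq annotation it overlaps 1 gene, LOC121109993.

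TTR, the plasma carrier, was slightly lower at high density without passing the threshold. Its higher mean was 6018 per the authors' deposited table, taken as that of low density, and the computed mean at high density was 5574. The log2 fold change was -0.11 (approximate SE 0.13, unadjusted p = 0.395 per the authors' deposited table), with an interval of -0.37 to 0.14, or 0.776-fold to 1.11-fold. The gene (ENSGALG00000015143) lies on the plus strand of chromosome 2, from 106129430 to 106138301, and overlaps no other model with a value in the deposited table. In RefSeq's annotation of GRCg7b it overlaps 1 gene, LOC112531842, which also stands next to it. The other hormone binders also had small negative values. CRYM, a cytosolic T3-binding protein, had a log2 fold change of -0.11, albumin (ALB) one of -0.05 and APOA1, a lipoprotein component that also binds hormone, one of -0.05 per the authors' deposited table. None of these 3 was called or had an unadjusted p under 0.05, and SERPINA7, the thyroxine-binding globulin, has no row under its symbol.

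The wider pathway was read from 10 lists of genes grouped by role, drawn up with earlier results of this comparison known. Of 163 listed symbols, 114 other than the 5 genes above had a value, 61 of them higher and 53 lower in the crowded birds. The median log2 fold change was 0.009, against 0.001 over all genes with a value. Of the 114 genes, 2 (1.75%) were called, both higher, where 0.159% of all genes were called higher and 0.273% in either direction. Since the lists were not drawn up blind, this share is no test. They were GLI1, the transcription factor of Hedgehog signalling, and the selenoprotein SELENOP1. The SELENOP1 value is uncertain, since its model shares 5650 bases with another on the same strand. An unadjusted p below 0.05 was reached by 18 genes (15.8%), 7 higher and 11 lower. Of all genes 5.58% reached that level, 2.46% as higher and 3.12% as lower. That background includes many genes with low means, since 10867 of the 20170 genes had a mean of at least 1. No share among genes with similar means was computed.

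**Figure D3:**
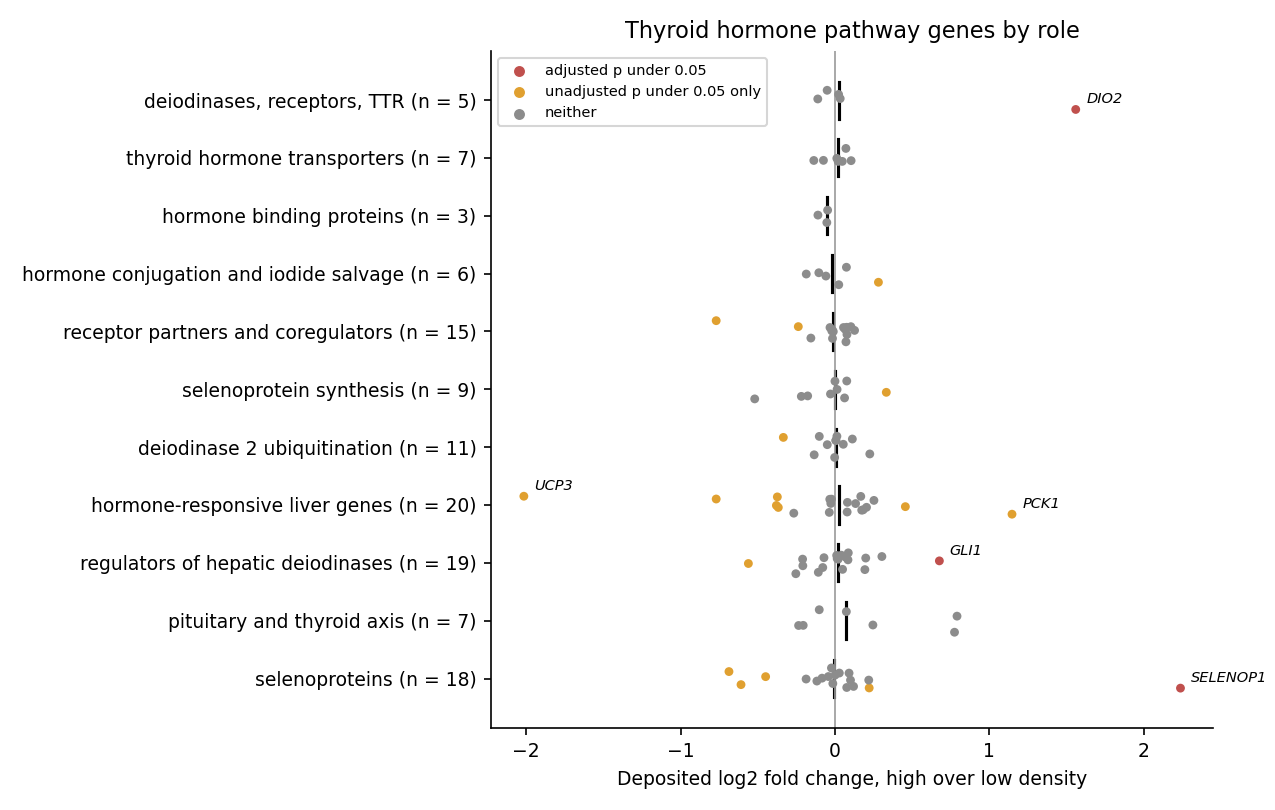
Deposited log2 fold change (high over low density) of each gene with a value in the deiodinase, receptor and TTR group and in 10 lists of related genes; black ticks are list medians, red points were called, and orange points had only an unadjusted p under 0.05. Medians lie between -0.05 and 0.07, and DIO2, GLI1 and SELENOP1 are the 3 called genes.

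Transporters that bring thyroid hormone into cells showed little difference. Of 14 listed, 7 had a value, with 5 higher, 2 lower, 0 called and 0 at an unadjusted p under 0.05. Their log2 fold changes ran from -0.14 to 0.11. The T3 exporter and aromatic amino acid carrier SLC16A10 (-0.14), the organic anion carrier SLCO1A2 (0.11), the amino acid carrier SLC7A5 (0.07) and SLCO4A1 (-0.07) had the smallest p-values per the authors' deposited table. SLCO1C1, a T4 transporter of the brain barrier in mammals, is listed at 0.

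Genes of hormone conjugation and iodide salvage were split, 3 higher and 3 lower of 6 with a value (11 listed), with 0 called. IYD, which recovers iodide from iodotyrosines, had the smallest p, with a log2 fold change of 0.28 (approximate SE 0.11, unadjusted p = 0.0118, adjusted p = 0.709 per the authors' deposited table). The glucuronosyltransferase UGT1A1 (-0.19), the sulfotransferase SULT1B1 (-0.10) and the steroid sulfatase STS (0.07) followed per the authors' deposited table, and none of them had an unadjusted p under 0.05.

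Partners and coregulators of the receptors were also near balance, with 7 higher and 8 lower of 15 with a value (19 listed), a median of -0.01 and 0 called. An unadjusted p under 0.05 was found for 2, both lower, where 3.12% of all genes were lower at that level. The coactivator PPARGC1A, a driver of hepatic gluconeogenesis and mitochondrial genes, had a log2 fold change of -0.77 (approximate SE 0.26, adjusted p = 0.399 per the authors' deposited table). The deacetylase SIRT1 had one of -0.24 (approximate SE 0.12, adjusted p = 1.0 per the authors' deposited table), and it shares 106 bases with DNAJC12 on the other strand. The corepressor-bound deacetylase HDAC3 had a log2 fold change of 0.13 per the authors' deposited table. RXRA and RXRG, the retinoid X receptors that pair with THRA and THRB, had log2 fold changes of 0.07 and -0.02 per the authors' deposited table and are named for that role.

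Genes that respond to T3 in vertebrate liver were divided evenly, 10 higher and 10 lower of 20 with a value (30 listed), with a median log2 fold change of 0.03 and 0 called. An unadjusted p below 0.05 was reached by 2 genes in the higher and 5 in the lower direction. Of all genes, 2.46% were higher and 3.12% lower at that level. PCK1, an enzyme of gluconeogenesis, had a log2 fold change of 1.15 with a wide approximate SE of 0.43 (adjusted p = 0.604 per the authors' deposited table). An unnamed model on the other strand shares 7723 bases with PCK1, its whole length. That model had a log2 fold change of 0.94 (unadjusted p = 0.0603 per the authors' deposited table). The mitochondrial carrier UCP3 had one of -2.02 at a mean of 0.226 (approximate SE 0.71, adjusted p = 0.464 per the authors' deposited table). PPARGC1A, already given, is in this list too. G6PC (-0.37), CPT1A (-0.37) and ABCG5 (-0.38) were also lower at an unadjusted p under 0.05 per the authors' deposited table. They are named after their values were seen. The classical T3-induced genes of lipid synthesis named here for that role were uncalled, with only ME1 lower, and these values do not settle a direction. THRSP, named for its response to thyroid hormone, had a log2 fold change of 0.08, the malic enzyme ME1 one of -0.27, the fatty acid synthase FASN one of 0.25 and the acetyl-CoA carboxylase ACACA one of 0.17 per the authors' deposited table, all with an unadjusted p of at least 0.058.

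The selenocysteine machinery, on which the deiodinases depend, had 5 genes higher and 4 lower of 9 with a value (13 listed), a median of 0.001 and 0 called. SECISBP2L, a relative of the SECIS-binding protein, had a log2 fold change of 0.33 (approximate SE 0.16, unadjusted p = 0.0338 per the authors' deposited table). PSTK, the kinase that prepares the selenocysteine tRNA, had one of -0.52 (approximate SE 0.30, unadjusted p = 0.0862 per the authors' deposited table). The ribosomal protein RPL30 (-0.22), which can bind SECIS elements, and the seryl-tRNA synthetase SARS (-0.18) followed per the authors' deposited table.

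In mammals the DIO2 protein is controlled by ubiquitination, so the genes of that step were listed as well. Of 15 listed, 11 had a value, with 6 higher, 5 lower, a median of 0.006 and 0 called. RBX1, the RING subunit of cullin ligases, had a log2 fold change of -0.33 (approximate SE 0.17, unadjusted p = 0.0496), and its scaffold partner CUL5 one of 0.23 (approximate SE 0.12, unadjusted p = 0.0572), both per the authors' deposited table. The ligase MARCH6 (0.11) and the adaptor ELOC (-0.13) came next per the authors' deposited table. WSB1, the subunit that recognises DIO2 in mammals and named here for that role, had a log2 fold change of 0.01 (approximate SE 0.13), with an interval of -0.23 to 0.26.

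A list of regulators of deiodinase genes, from growth hormone, glucocorticoid, cAMP, bile acid and Hedgehog signalling, had 12 members higher and 7 lower of 19 with a value (22 listed), with a median of 0.02. The list does not name the deiodinase that each one acts on, and a link of any of them to DIO2 was not tested. Of the 19, 1 was called, as higher, where 0.159% of all genes were. GLI1 rose by 0.68 on the log2 scale (approximate SE 0.16, adjusted p = 0.0214 per the authors' deposited table). The Hedgehog ligand SHH had a log2 fold change of 0.30 (approximate SE 0.17, unadjusted p = 0.0742), and the NF-kappaB subunit RELA one of -0.25 (unadjusted p = 0.11), per the authors' deposited table. CREM, a factor of the cAMP response, had one of -0.56 (approximate SE 0.21, adjusted p = 0.615 per the authors' deposited table). The growth hormone receptor GHR (0.08) and the glucocorticoid receptor NR3C1 (-0.07), named for their roles, were uncalled per the authors' deposited table.

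Genes of the pituitary and thyroid axis, whose main sites are outside the liver, had means at or near 0 on the unnamed scale, apart from CRHR2 and TSHB. The TSH receptor TSHR, CGA and NKX2-1 are listed at 0. CRHR2, a receptor for corticotropin-releasing hormone peptides that controls TSH release in birds, had a higher mean of 12.7, taken as that of low density. Its log2 fold change was -0.24 (unadjusted p = 0.234 per the authors' deposited table). TSHB, the beta subunit of TSH, had a mean of 1.56 and a log2 fold change of -0.10 (approximate SE 0.45). DUOX2 and TRH had means of 0.0859 and 0.00714 and log2 fold changes of 0.79 and 0.78 per the authors' deposited table. Their approximate SEs of 0.63 and 1.59 are wide, so no difference is read from them.

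The surroundings of each gene on its chromosome were then looked at, taking the 3 nearest genes with a value on each side and any overlapping model, 36 genes in all. Around DIO2 most means were low on the unnamed scale. The nearest model, ENSGALG00000049480, 12.6 kb away, had a log2 fold change of 2.34 (approximate SE 2.22) at a mean of 0.00105. NRXN3, 84.8 kb away on that side, and CEP128, 104 kb away on the other, had log2 fold changes of -0.25 and -0.17 at means of 0.0258 and 0.361 per the authors' deposited table. ENSGALG00000052444 and ENSGALG00000047413 had log2 fold changes of 0.50 and -2.31 at means of 0.00575 and 0.000945. GTF2A1, a general transcription factor subunit 261 kb away and the 1 neighbour with a mean of at least 1, had a log2 fold change of 0.13 (approximate SE 0.10, unadjusted p = 0.181 per the authors' deposited table). TSHR lies between CEP128 and GTF2A1 and is listed at 0.

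The neighbours of DIO1 and THRB with a mean of at least 1 had log2 fold changes from -0.19 to 0.07 and from -0.41 to 0.22 per the authors' deposited table. None was called, where 0.273% of all genes were. THRA and THRB each have a Rev-erb gene nearby, heme-binding repressors of the circadian clock. NR1D1, 2.08 kb from THRA, had a log2 fold change of 0.14 (unadjusted p = 0.487), and NR1D2, 34.3 kb from THRB, one of 0.22 (unadjusted p = 0.11), per the authors' deposited table.

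Next to TTR stood the 1 called gene of the 36, where 0.273% of all genes were called. ENSGALG00000044733 has no symbol in the deposited table and lies on the same strand (chromosome 2, 106140241 to 106146311), 1939 bases beyond the end of TTR. It fell at high density, with a log2 fold change of -0.78 (approximate SE 0.18, adjusted p = 0.017 per the authors' deposited table), against -0.11 for TTR. Its higher mean was 22.4, taken as that of low density. The computed mean at high density was 13.0. B4GALT6, a galactosyltransferase on its far side, had a log2 fold change of -0.06, and DSG2, a desmosomal cadherin on the other side of TTR, one of 0.15 per the authors' deposited table.

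**Figure D4:**
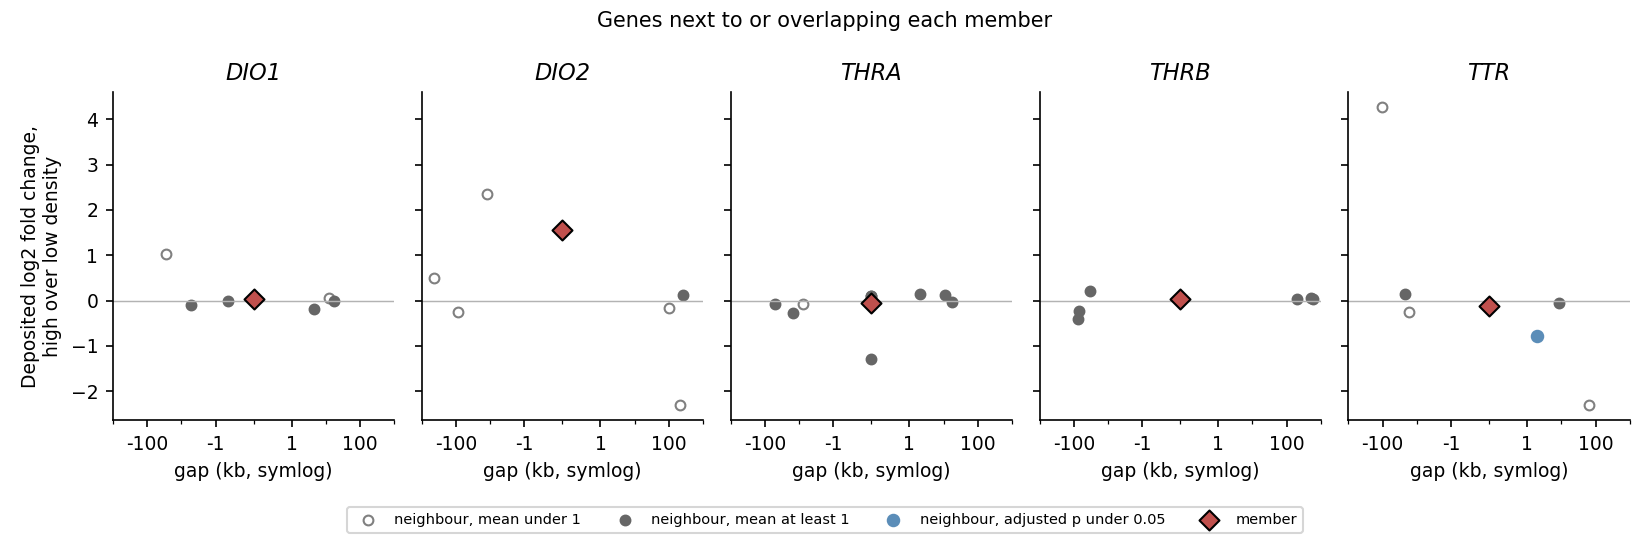
Deposited log2 fold change (high over low density) of the genes next to or overlapping DIO1, DIO2, THRA, THRB and TTR against their gap to the gene in kb (symmetric log axis, overlapping models at 0). Red diamonds are the genes described, open circles have a mean under 1, and the blue point is ENSGALG00000044733, the 1 called neighbour, at -0.78.

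Markers fixed for liver and blood cell types were checked in the same comparison. Of 13 hepatocyte markers with a value, 8 were higher and 5 lower (median log2 fold change 0.03, 0 called, 0 at an unadjusted p under 0.05). Among them, ALB had a higher mean of 36025 per the authors' deposited table, taken as that of low density. T and NK cell markers were lower in each of 8 cases (median -0.29), and 3 of them had an unadjusted p under 0.05. The 1 called was GNLY, where 0.114% of all genes were called lower. Also lower were 9 of 10 macrophage (median -0.07) and 10 of 12 stellate cell and fibroblast markers (-0.17). So were 6 of 10 endothelial (-0.03) and 7 of 9 cholangiocyte markers (-0.27), with 0 called in these 4 lists. Their counts at an unadjusted p under 0.05, in that order, were 1, 2, 0 and 2 lower, with 1 cholangiocyte marker higher. Of all genes, 3.12% were lower and 2.46% higher at that level. Of 9 erythroid markers 8 were higher (median 0.20, 0 called), with 2 higher and 1 lower at an unadjusted p under 0.05. The 2 higher ones were SLC4A1 (0.67) and HBBA (0.64) per the authors' deposited table. The 1 lower was the embryonic globin HBZ (-2.21 at a mean of 0.375). Among macrophage markers, the lysozyme LYZ had a value of -1.43 at a mean of 2.93 per the authors' deposited table. Its model shares 2273 bases with YEATS4 on the same strand. These single markers were named after their values were seen. Of 92 genes of the female W chromosome, 70 were higher, against 50.3% of all genes, although all birds were labelled male. An unadjusted p below 0.05 was reached by 10 of the 92, against 5.58% of all genes, and their directions were not counted. None of the 92 was called, where 0.273% of all genes were. The part of these cell type and W chromosome genes in the change of DIO2 was not tested.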

How the data were processed

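RNA of 8 pooled liver libraries, 4 per stocking density, was sequenced on an Illumina HiSeq, per the labels' protocols. The authors deposited 1 table of 23613 genes, holding, per the file headers, the higher group mean on an unnamed scale, log2 and signed fold changes, and p-values plain, FDR-adjusted and Bonferroni-adjusted. Per the submitters' processing notes GRCg6a was the build. The aligner, the counter, the normalization and the test were not given in the sources used here. In 3443 rows every value is 0, and these were left out. A Benjamini-Hochberg adjustment recomputed over all rows differed from the deposited FDR p-value by at most 2.4e-05. Count and limma tests were planned for files with values per library and did not apply, so no test of the libraries was run. Lower means, approximate SEs and alternative adjustments were computed in Python 3.11.15 with pandas 2.3.3 and scipy 1.17.1. The adjustment and the SE formula, but not the lower means, were checked on simulated data. Those data had Wald p-values by design, so the check cannot tell whether the deposited p-values are of that kind.

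The members and lists were chosen with earlier results of these data known. Named genes are all members, called genes and up to 4 with the smallest p per list. Neighbours and the 4 called genes nearest DIO2 in fold change are named too. Those "named for a role", and a few others marked so, were added after their values were seen. P-values set the difference between the groups of 4 pools against a spread that may be partly technical. How the unnamed test estimated that spread is not known. A few listed genes are counted but not reported here by name.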

Additional observations from a re-analysis of the deposited data

How the results depend on the processing

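The 5 alternatives run cannot test the call of DIO2, since a p-value of 0 stays 0 under any adjustment or threshold and none of them changes the fit. Its log2 fold change was 1.56 to 1.57, and DIO1, THRA, THRB and TTR stayed uncalled. Over all genes the count of 55 fell to 16 with the deposited Bonferroni adjustment and to 20 at an adjusted p under 0.01. It was 63 when adjusted over genes with a value only, and 58 when restricted to means from 1 upwards. Subtracting the median log2 fold change of that last set, -0.008, leaves p-values as they are, so the count of 55 could not change. Of the 2 called pathway genes, 1 was left under Bonferroni and 1 at 0.01, SELENOP1 in both cases, so the call of GLI1 depends on the threshold. Leaving out libraries, a replicate block and DESeq2 were not run, since no values per library were used. No paired analysis was possible because the table used carries no values per library. Sample titles number the replicates in each group, and whether equal numbers mark pairs is not known here. Depth is unknown, and so is what it limits.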

Other observations

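The deiodinases are selenoproteins, and of 18 other selenoprotein genes with a value (22 listed) 9 were higher and 9 lower at high density, with a median log2 fold change of -0.006. An unadjusted p under 0.05 was reached by 2 as higher and 3 as lower, against 2.46% and 3.12% of all genes. SELENOP1, a selenoprotein P that carries selenium in plasma, was the 1 called, where 0.159% of all genes were called higher. It was higher by 2.24 (approximate SE 0.37, adjusted p = 1.19e-05 per the authors' deposited table). Its model shares 5650 bases with ENSGALG00000014857 on the same strand, which had a value of -0.52 (adjusted p = 0.73 per the authors' deposited table), so the SELENOP1 value is uncertain. The methionine sulfoxide reductase MSRB1 (-0.61, approximate SE 0.22), SELENOW (-0.69, approximate SE 0.29) and SELENOM (-0.45, approximate SE 0.22) had the next smallest p-values per the authors' deposited table, all with adjusted p-values of at least 0.487. SELENOW shares 865 bases with TGFB1 on its strand. SELENOP2, the other selenoprotein P gene, had a value of -0.08, and the glutathione peroxidases GPX1, GPX3 and GPX4 had values between -0.19 and -0.02, per the authors' deposited table.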
